A study of Mus musculus with 8 samples.

Results

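Respiratory complex I, NADH:ubiquinone oxidoreductase, was followed through the genes whose symbols start with Nduf, in the hearts of newborn connexin43 null mice and their wildtype counterparts. The array carried 62 probes with a single Nduf symbol, for 38 genes. Of these, 36 genes (56 probes) were measured on 3 or more arrays in both genotypes and are the members described here, among 11804 features tested in all. The other two, Ndufa6 and Ndufs5, had 1 probe each, with a value on 0 of 8 arrays. Ndufs3, Ndufb1, Ndufb2, Ndufab1, Ndufa4, Ndufaf5 and Ndufaf8 were not analysed here, and neither were the subunits that mitochondrial DNA encodes.

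Both genotypes were on the C57BL background, and each of 4 arrays per genotype held cDNA of a pool of 3 hearts. How the null allele was made, whether it acts in all cells and whether pools shared litters is not given in the sources used here. Heart cDNA carried Cy3, and a Cy5-labelled reference, prepared once from adult tissues of both sexes (brain, lung, liver, kidney, stomach, spleen, ovary or testicles, aorta and the adult heart itself), was present on every array. Values are log2 ratios of heart over this reference after the array's own median was subtracted. A value of 0 is thus the ratio of the median spot, not equal abundance.

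The labels do not say which dye is the numerator. The direction is likely heart over reference: sarcomere genes had medians of 0.72 to 1.16 and genes of other adult tissues medians of -3.23 to -1.95, with the first above the second on 8 of 8 arrays. If the ratio ran the other way, every level and difference below would change sign, with above and below the array median, and higher and lower in null hearts, exchanged. Gja1, which encodes connexin43, read -0.29, 0.25, 0.12 and 0.22 on null arrays 1 to 4, against 1.04, 1.31, 0.99 and 0.79 on wildtype arrays 1 to 4. Its groups did not overlap (exact two-sided permutation p = 0.0286, the smallest that 70 assignments allow; adjusted p = 0.340 in limma). Its 1 probe is a check of the labels only if it lies in the deleted part, which is not known here. Spots with a value numbered 17879 to 20212 on null arrays and 12971 to 23929 on wildtype arrays, with the lowest number on wildtype replicate 1. Its median rank correlation with the remaining arrays was 0.576, and that of every other array was 0.663 or more. Of the cell type markers, 3 of 3 measured lung epithelial genes (Cbr2, Scgb1a1 and Sftpc) had lower values in null hearts. Their mean log2 ratio was -3.18 to -2.82 on null arrays and -2.48 to -1.85 on wildtype arrays, and their part in the results below was not tested. With 4 arrays per genotype, precision is limited by their number.

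Complex I takes electrons from NADH and hands them to ubiquinone while it pumps protons across the inner mitochondrial membrane, as the entry point of the respiratory chain. Its matrix arm consists of the N module, which binds NADH, and the Q module, which reduces ubiquinone; its membrane arm consists of a proximal and a distal part that carry out proton pumping. A few core subunits conserved from bacteria do the chemistry, many supernumerary subunits surround them, and dedicated assembly factors build the enzyme without staying in it. Heart muscle is rich in mitochondria and shifts towards oxidative metabolism after birth.

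A feature shared by some members, which the choice of genes did not use, lay in the sequence around their start sites. Promoter windows of 250 bases before to 50 bases after the start were matched for 32 of the 36 members (34 windows, RefSeq, GRCm38.p6), with a median GC content of 59.2%, against 52.7% for the windows of all genes. The letters AAGATGGCG, part of a motif of the transcription factor YY1, were found on either strand in windows of 5 of 32 members (15.6%), against 1.64% of 27025 genes. In all 5 they read in the direction of the gene and began 22 to 35 bases past the start. These sites are shown because their strand and distance, which the search for these letters did not fix, were so alike, with the YY1 letters in capitals:
Ndufs4 (chr13:114388045-114388071, minus strand): tttgcctacaggAAGATGGCGgcggtc
Ndufs6 (chr13:73328435-73328461, minus strand): agggtcaccggcAAGATGGCGgcggtg
Ndufs7 (chr10:80249461-80249487, plus strand): aaggccgaggccAAGATGGCGgcgctg
Ndufa9 (chr6:126849101-126849127, minus strand): gcattgtgggagAAGATGGCGgccgcc
Ndufc1 (chr3:51408919-51408945, minus strand): agcctgcggaacAAGATGGCGccgtcc

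The core of the NRF-1 motif, GCATGCGC, was present in windows of 3 members (9.38%), against 3.05% of all genes. NRF-1 is a known activator of nuclear genes for the respiratory chain. The 3 genes and the matched letters, in capitals on the strand of the gene, were as follows; the same 8 letters read from the other strand are GCGCATGC:
Ndufa11 (chr17:56717690-56717715, plus strand): aacctgcactgcGCGCATGCgcgcac
Ndufa8 (chr2:36049333-36049358, minus strand): gtcgctggagacGCATGCGCagatgg
Ndufaf4 (chr4:24897958-24897983, plus strand): gcccagatgtctGCGCATGCgcctgt

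The ETS letters CCGGAAG were found in 4 of 32 members (12.5%, against 9.93% of all genes), the TATA letters TATAAA in 4 (12.5%, against 15.7%) and the ERR letters TCAAGGTCA in 0 (against 0.466%). All motifs were searched on both strands; the NRF-1 letters share bases with their own reverse complement, so that 1 stretch can hold both, and the capitals mark 1 match. Ndufaf4 held a further NRF-1 match, not shown. A match is a run of letters and says nothing of binding in these hearts. The genes compared were not matched for GC content. Whether the YY1 letters, which hold ATG, lie at the start of the coding sequence was not tested.

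Relative to the adult tissue reference, complex I genes stood above the array median in neonatal hearts of both genotypes. Of the 36 members 33 had a mean log2 ratio above 0 over all arrays (91.7%), against 50.2% of all features, and their median was 0.26, against 0.0021 for all features. Split by role, 30 of 30 subunit genes were above 0, but 3 of 6 assembly factors. In null hearts 31 and in wildtype hearts 34 of the 36 member means were above 0. These levels are described without a test, because dyes were not swapped and dye bias stays in a ratio to the reference. In RNA of whole hearts, a different share of heart muscle cells and a different amount of RNA per cell cannot be told apart.

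**Figure D1:**
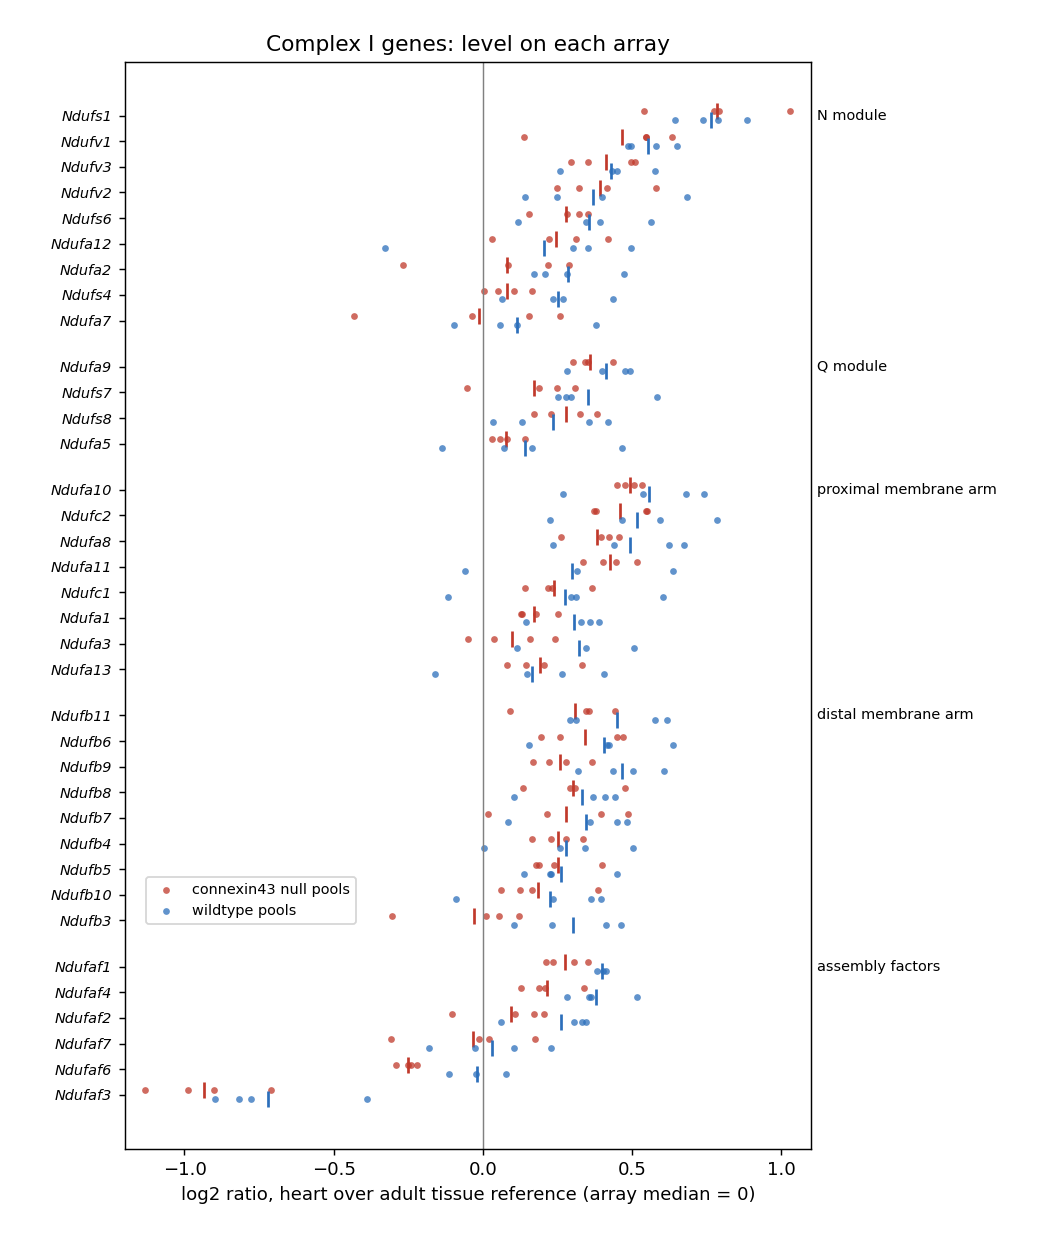
Log2 ratio of heart over adult tissue reference (array median 0) for the 36 complex I genes, grouped by part of the enzyme. Points are single arrays and vertical ticks genotype means, with connexin43 null pools above wildtype pools in each row; 30 of 30 subunit genes have a mean above 0 over all arrays, Ndufs1 the highest, and the assembly factor gene Ndufaf3 lies below 0 on all arrays.

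The N module held the highest ratio of the family. Ndufs1, which encodes the largest core subunit and carries iron-sulphur clusters, read 0.54, 0.79, 1.03 and 0.77 on null arrays 1 to 4 and 0.64, 0.79, 0.74 and 0.89 on wildtype arrays 1 to 4. All 8 values were high, a mean ratio 1.71 times that of the median spot, and the genotypes overlapped. The core gene Ndufv1, whose product binds NADH and the flavin that first takes its electrons, read 0.14, 0.55, 0.55 and 0.63 on null arrays, against 0.49, 0.50, 0.65 and 0.58 on wildtype arrays. Null replicate 1 was low for Ndufv1, and the other 7 arrays lay close together. Ndufv2, the core subunit beside it with an iron-sulphur cluster, averaged 0.39 ± 0.14 (SD, n = 4) on null arrays and 0.37 ± 0.24 (SD, n = 4) on wildtype arrays. Lower ratios within the module belonged to supernumerary subunits, with Ndufa7 at a mean of 0.05 over all arrays, Ndufs4 at 0.17 and Ndufa2 at 0.18.

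In the Q module, Ndufa9, a supernumerary subunit of the dehydrogenase/reductase fold, averaged 0.39 and was above 0 on 8 of 8 arrays, but its 2 probes averaged 0.23 and 0.54. Ndufs7 and Ndufs8, core subunits whose iron-sulphur clusters pass electrons towards ubiquinone, both averaged 0.26. Ndufa5 was lowest of the 4 measured members at 0.11.

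Of the 8 measured genes of the proximal membrane arm, Ndufa10 stood highest. This supernumerary subunit, related to nucleoside kinases, read 0.53, 0.48, 0.45 and 0.51 on null arrays and 0.27, 0.54, 0.74 and 0.68 on wildtype arrays. The null arrays were nearly alike and lay within the wider range of the wildtype arrays. Ndufc2 averaged 0.49 over all arrays, Ndufa8 0.44 and Ndufa11 0.37 (7 arrays). Ndufa13, also known as GRIM-19 for a role in cell death, was lowest at 0.18. Genes of the distal membrane arm spanned a narrower range, with means of 0.14 for Ndufb3 to 0.38 for Ndufb11.

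Assembly factors spanned the widest range of levels of these groups. Ndufaf1, which acts in the complex that builds the membrane arm, and Ndufaf4 averaged 0.33 and 0.30 over the arrays that measured them. Ndufaf7, a methyltransferase, stood at -0.00032 and Ndufaf6 at -0.15. Ndufaf3, whose product binds that of Ndufaf4 early in assembly, read -1.13, -0.90, -0.99 and -0.71 on null arrays and -0.90, -0.82, -0.39 and -0.78 on wildtype arrays. It was the 1 member below 0 on every array, at 0.564 times the ratio of the median spot, and its groups overlapped. Apart from Ndufs1 at the top and Ndufaf3 at the bottom, neighbours in the order of levels differed by less than the spread in wildtype hearts: the median SD between arrays was 0.11 in null and 0.18 in wildtype hearts over the 36 members.

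The question between genotypes was whether complex I transcripts changed when connexin43 was absent. No member passed the test. In limma (a linear model fitted over all features, with Benjamini-Hochberg adjustment), 0 of 36 members were called at an adjusted p of 0.05, where the percentage called among all 11804 features was also 0. The smallest adjusted p of a member was 0.568. In simulated data the same fit called 4.1% of planted log2 changes of 0.5. The count of 0 called therefore cannot by itself exclude changes of that size. Lower values in null hearts were found for 30 of 36 members, with a median log2 difference of -0.06, against 59.1% of all features and a median of -0.04. At an unadjusted p under 0.05, 1 member was lower and 0 were higher, beside 6.13% lower, 2.1% higher and 8.23% in either direction of all features. Groups that did not overlap, null below wildtype, were found for 2 members, beside 5.54% of all features, and null above wildtype for 0, beside 2%.

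For each gene on its own, and given the centring of the arrays, the intervals bound how large a change the data leave room for. Without centring the median difference of the members was -0.22, in place of -0.06, and intervals were not taken from that setting. For 35 of 36 members the 95% interval of the difference lay within 1.5-fold either way, and for 1, Ndufb3, it reached past 1.5-fold lower. The median standard error of a member's difference was 0.12, against 0.14 for all features.

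**Figure D2:**
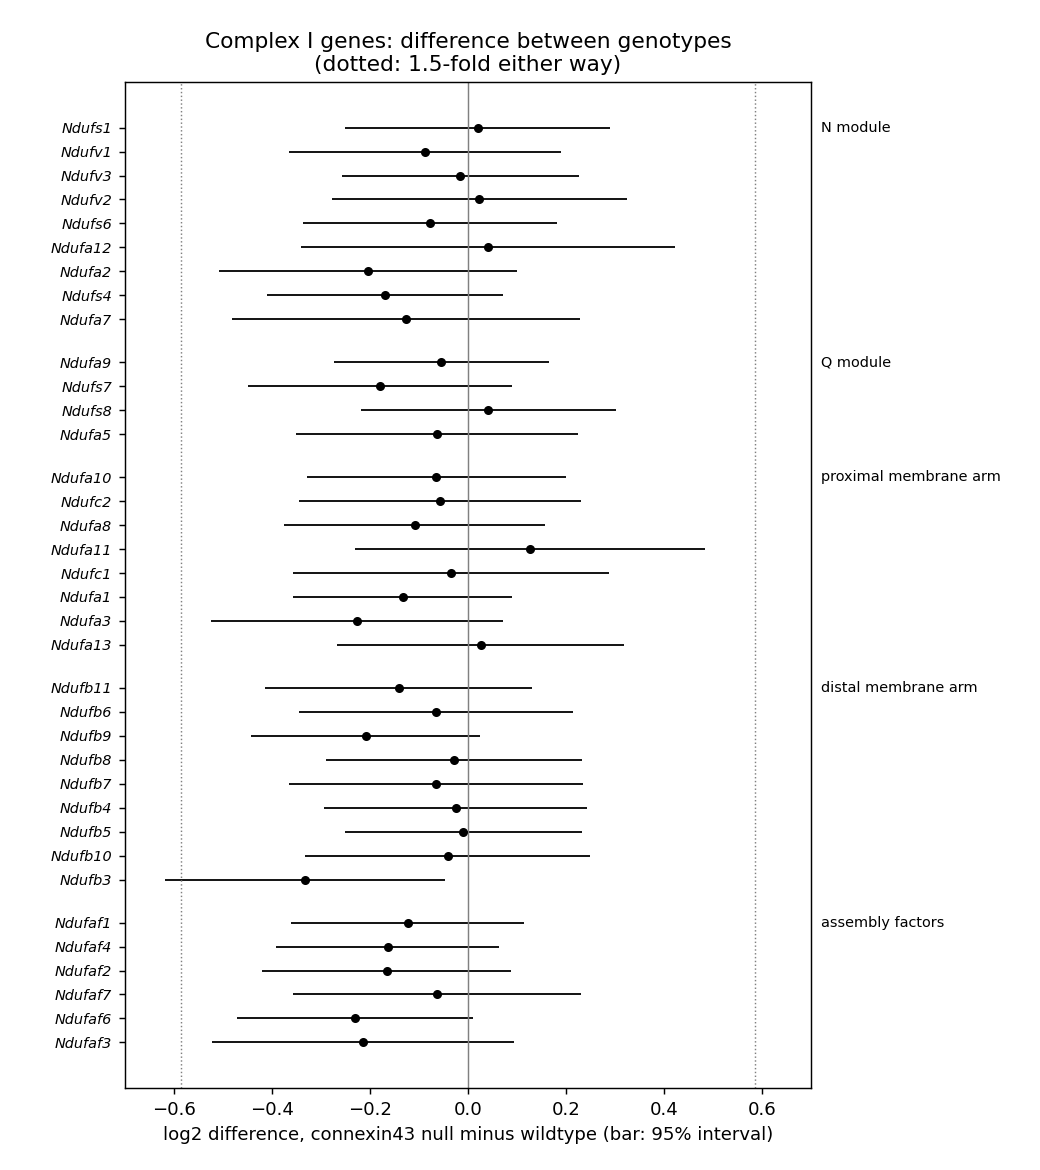
Log2 difference, connexin43 null minus wildtype, of the 36 complex I genes, with 95% intervals from the limma fit and dotted lines at 1.5-fold either way. Points lie below 0 for 30 of 36 genes, and the interval excludes 0 for Ndufb3 alone before adjustment for 11804 features.

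Of the subunit genes, the distal membrane arm held the smallest p-value, with lower values for 9 of 9 members and a median difference of -0.06. Ndufb3, a small supernumerary subunit that spans the membrane, read 0.05, 0.01, -0.31 and 0.12 on null arrays and 0.46, 0.23, 0.41 and 0.10 on wildtype arrays. Null replicate 3 was lowest, and wildtype replicate 4 lay within the null range. Its difference was -0.33 (SE 0.13, 95% interval -0.62 to -0.05, limma adjusted p = 0.568), and it ranked 533 among all features. Ndufb9, a subunit of the LYR family that binds the acyl carrier protein, read 0.28, 0.22, 0.17 and 0.37 on null arrays and 0.32, 0.44, 0.61 and 0.50 on wildtype arrays. Only null replicate 4 and wildtype replicate 1 crossed, and the difference was -0.21 (SE 0.11, limma adjusted p = 0.609). Ndufb11 followed with -0.14 (SE 0.12), and the other 6 members of this arm had differences of -0.07 to -0.0093. Without wildtype replicate 3, 4 of 9 members of this arm had lower values.

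The proximal membrane arm had lower values for 6 of 8 members, beside 59.1% of all features, with a median difference of -0.06. Ndufa3 read 0.04, 0.16, -0.05 and 0.24 on null arrays and 0.34, 0.51 and 0.11 on wildtype arrays 2 to 4, with no value on wildtype replicate 1. Groups overlapped through wildtype replicate 4, and the difference was -0.23 (SE 0.13). Ndufa11, a subunit at the contact with complex III, had the highest difference of the family, 0.13 (SE 0.16), which turned to -0.11 without centring of the arrays. It read -0.06 on wildtype replicate 1 and was 0.32 and 0.64 on wildtype replicates 2 and 4, a range that holds all 4 null values.

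In the N module 6 of 9 members had lower values (median difference -0.08), and in the Q module 3 of 4 (median -0.06), beside 59.1% of all features. Ndufs4, the supernumerary subunit whose loss in mice causes a fatal brain disease, read 0.05, 0.10, 0.0047 and 0.17 on null arrays and 0.06, 0.24, 0.43 and 0.27 on wildtype arrays. Wildtype replicate 1 lay within the null range, and the 2 probes gave -0.26 and -0.07. Ndufa2, of a thioredoxin-like fold, read 0.08, 0.22, -0.27 and 0.29 on null arrays and 0.28, 0.21, 0.47 and 0.17 on wildtype arrays. Its groups overlapped widely, and its 2 probes gave -0.39 and -0.02. Of the core subunits, the part of the enzyme that does the redox chemistry, 2 of 5 measured had lower values, with a median difference of 0.02 and a range of -0.18 for Ndufs7 to 0.04 for Ndufs8.

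Assembly factors had lower values for 6 of 6 members, with a median difference of -0.16. Ndufaf6, a factor for early steps of assembly, read -0.29, -0.22, -0.24 and -0.25 on null arrays and -0.02, 0.08 and -0.11 on wildtype arrays 2 to 4. The groups did not overlap, the null arrays had an SD of 0.03, and the difference was -0.23 (SE 0.11, limma adjusted p = 0.594). Ndufaf1 read 0.21, 0.23, 0.35 and 0.31 on null arrays and 0.41, 0.40 and 0.38 on wildtype arrays 2 to 4. Its groups also did not overlap, by a gap of less than the null spread, with a difference of -0.12 (SE 0.11, limma adjusted p = 0.757). For both genes, wildtype replicate 1 had no value. Ndufaf4 read 0.19, 0.13, 0.34 and 0.21 on null arrays and 0.36, 0.36, 0.52 and 0.28 on wildtype arrays, a difference of -0.16 (SE 0.10) with overlap at null replicate 3. Its 2 probes differed in level, at 0.59 and 0.0038, and gave -0.28 and -0.05. Ndufaf3 had -0.21 (SE 0.14), but -0.03 after a loess correction for the mean ratio, and Ndufaf2, a chaperone related to the subunit Ndufa12, had -0.17 (SE 0.12).

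The number of members with lower values depended on single arrays. Over the 32 members with values on all 8 arrays, the median log2 ratio was 0.24, 0.21, 0.17 and 0.33 on null arrays 1 to 4 and 0.19, 0.29, 0.48 and 0.35 on wildtype arrays 1 to 4. Wildtype replicate 3 stood highest and null replicate 3 lowest, with wildtype replicate 1 next above it, and the genotypes overlapped. Of these members, 24 had their highest value on wildtype replicate 3, 16 their lowest on wildtype replicate 1 and 10 their lowest on null replicate 3. Without wildtype replicate 3, 17 of 33 members had lower values in null hearts, against 54.6% of all features. Their median difference was -0.0026, against -0.02 for all features. A gene then needed a value on every remaining wildtype array. Ndufaf6, Ndufa3 and Ndufaf1, lower in null hearts over all arrays, dropped out, so the lower count is in part a change of genes. The difference of Ndufb11 was then 0.01, from 1 of its 2 probes. By part of the enzyme, 5 of 9 N module, 2 of 4 Q module, 3 of 7 proximal arm and 3 of 4 assembly factor genes were then lower. Without wildtype replicate 1, the array with the fewest spots, 34 of 35 members had lower values and the median was -0.16, against 60.0% and -0.04. Ndufa11, higher in null hearts over all arrays, dropped out there. Without null replicate 3, 25 of 36 members had lower values and the median was -0.06, against 56.3% and -0.03. With no centring of the arrays 36 of 36 members were lower with a median of -0.22, where 85.0% of all features were lower with a median of -0.18.

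**Figure D3:**
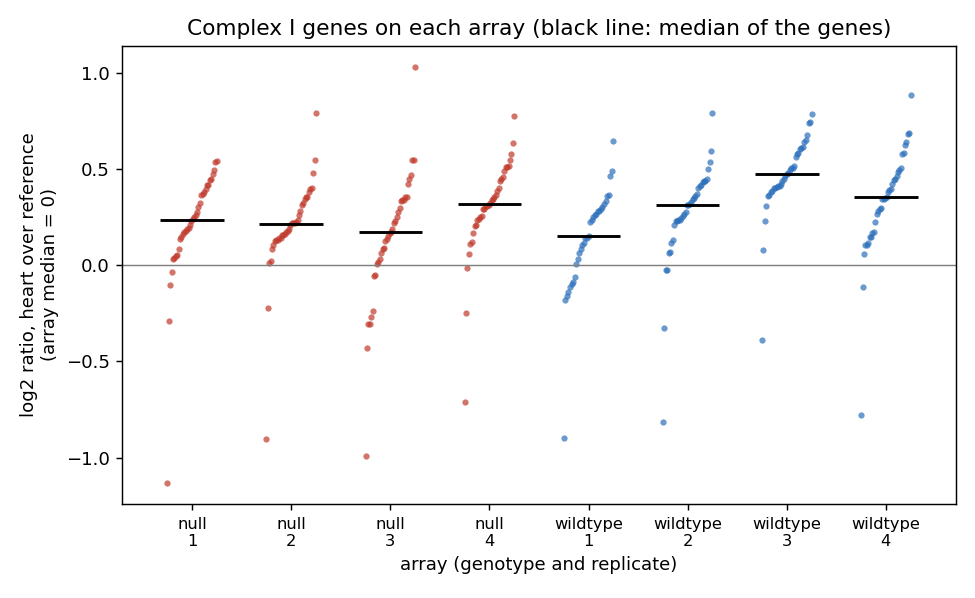
Log2 ratio of heart over reference (array median 0) of the complex I genes on each array, in order of value within an array, with the median as a black line. The medians over the genes measured on an array are 0.17 to 0.32 on null arrays and 0.15 to 0.47 on wildtype arrays, where replicate 1 measured 33 and replicate 3 measured 35 of the 36 genes.

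**Figure D4:**
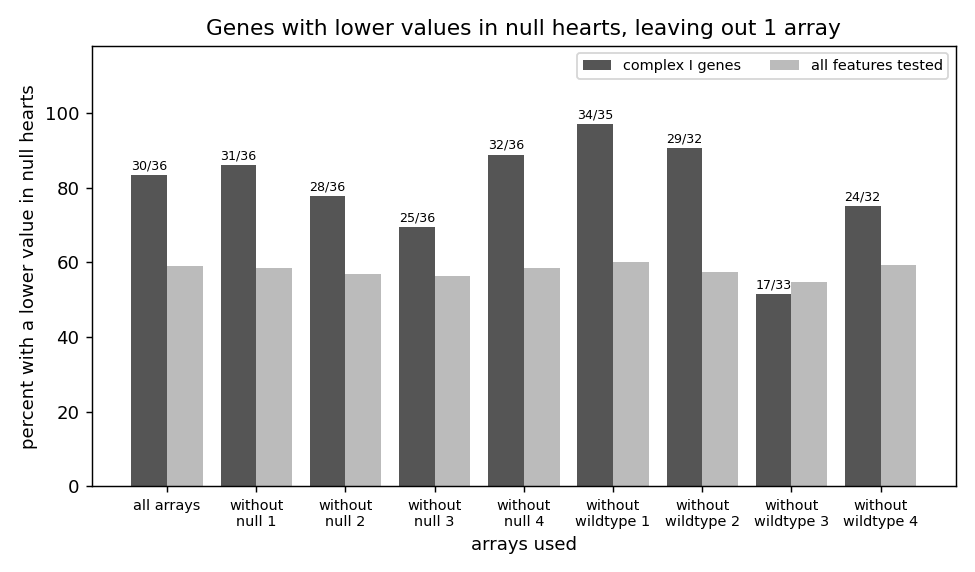
Percentage of complex I genes (dark bars, with counts) and of all features tested (light bars) with a lower value in connexin43 null hearts, over all arrays and without each array in turn. The share of complex I genes is 83.3% over all arrays, 97.1% without wildtype replicate 1, 51.5% without wildtype replicate 3 and 69.4% without null replicate 3. The genes counted change with the wildtype array left out, as a value on every remaining wildtype array is needed.

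Each part of the enzyme showed the same high array. On wildtype replicate 3 the median was 0.50 for the N module, 0.47 for the Q module, 0.60 for the proximal and 0.45 for the distal membrane arm and 0.27 for assembly factors, each the highest of the 8 arrays. Genes of complexes III and IV, which receive the electrons of complex I, were also highest on that array: their median over 19 genes was 0.67 on wildtype replicate 3, against 0.20 to 0.49 on the null arrays and 0.21 to 0.40 on the other wildtype arrays, with 17 of the genes measured on wildtype replicate 1. Heart muscle markers (7 of 16 measured) averaged 0.72 to 1.11 on null arrays and 0.81 to 0.99 on wildtype arrays, with 0.99 on wildtype replicate 3. Fibroblast markers (6 of 10 measured) averaged 0.42 to 0.62 on null arrays and 0.47 to 0.68 on wildtype arrays, with 0.68 on that replicate. Smooth muscle markers (2 of 5 measured) averaged -0.70 to -0.44 on null arrays and -0.60 to -0.36 on wildtype arrays, also highest on wildtype replicate 3. Other lists were not highest there. Endothelial markers (5 of 10 measured) averaged 0.47 on wildtype replicate 3 and 1.02 on wildtype replicate 1. Skeletal muscle markers (3 of 7 measured) averaged 0.42 on wildtype replicate 3 and 1.03 on wildtype replicate 4. Among wildtype arrays, erythroid, macrophage, liver and lung epithelial markers were highest on replicate 2. Ucp1, the 1 measured marker of brown fat, read 0.59, 0.40, 0.27 and 0.05 on null arrays and -0.52, -0.08, 0.48 and 0.12 on wildtype arrays. Among wildtype arrays it was lowest on replicate 1 and highest on replicate 3, as the median of the complex I genes was. Among null arrays it was highest on replicate 1 and lowest on replicate 4, the null array with the highest complex I median. The part of the cell makeup in the high complex I values of wildtype replicate 3 was not tested.

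Probes of a member did not always give like differences. For 18 members 2 or 3 probes were used, and for 8 of these the probes gave opposite signs. The widest gaps were those of Ndufa2, given above, of Ndufb11, with -0.35 and -0.0086, and of Ndufv3, with -0.17 and 0.14. The 2 probes of Ndufa8 gave -0.12 and -0.10, and those of Ndufa7 -0.14 and -0.12.

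Other genes that serve complex I did not pass either. Of 9 measured assembly factors without an Nduf symbol, 7 had lower values in null hearts and 0 were called, with a median difference of -0.16. Tmem126a had -0.35 (SE 0.13) over 3 arrays per genotype, with null below wildtype throughout. Oxa1l, which inserts proteins into the inner membrane, had -0.34 (SE 0.21) with 1.52 on wildtype replicate 1, and Acad9, an acyl-CoA dehydrogenase that works with Ndufaf1 in assembly, had -0.17 (SE 0.11). Of 10 genes for its iron-sulphur clusters, ubiquinone and stability, 7 were lower and 0 were called (median -0.07). Among them Nfs1, the desulphurase that supplies sulphur, had -0.28 (SE 0.13) and its partner Lyrm4 had -0.27 (SE 0.12), both with groups that did not overlap over 3 wildtype arrays. Coq5, a methyltransferase of ubiquinone synthesis, had -0.16 (SE 0.12).

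Regulators of mitochondrial biogenesis were lower for 6 of 10 measured genes, near the 59.1% of all features. None was called, and their median difference was -0.06, against -0.04 for all features. Tfb2m, a factor for transcription of mitochondrial DNA, averaged -0.0067 in null and 0.25 in wildtype hearts, a difference of -0.26 (SE 0.11, limma adjusted p = 0.591). Esrrg, a nuclear receptor that drives oxidative genes in the heart, had -0.13 (SE 0.12), and Polg, the polymerase of mitochondrial DNA, had 0.11 (SE 0.11). Genes of complexes III and IV were lower for 13 of 19 with a median of -0.07 and 0 called, led by Uqcrc2, a core subunit of complex III, at -0.19 (SE 0.10). Next by p-value came the complex IV genes Cox7c at -0.18 (SE 0.13) and Cox6a1 at -0.21 (SE 0.15, 3 wildtype arrays).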

How the data were processed

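The deposited values are log2 ratios of both dyes per spot; for the scanner software, background correction and scaling the entry is: not given in the sources used here. Base 2 was taken from the deposited values: within blocks of 598 spots, 8347 of 31305626 differences matched a quotient of whole numbers (at most 120, tolerance 1.5e-09) in base 2, against 269 in base e and 863 in base 10. Probes were named through the platform annotation, and 62 of 62 Nduf probes matched a gene number of the GRCm38.p6 table. Each array was centred on its median, and probes sharing a symbol, if measured on 3 or more arrays in both genotypes, were combined through a model of probe plus array. The null minus wildtype contrast came from lmFit and eBayes of limma 3.58.1 (R 4.3.3) over 11804 features, with Benjamini-Hochberg adjustment and a threshold of 0.05; intervals are at 95%. P-values measure the spread between pools of 3 hearts, not between single animals. Motifs and figures were made with Python 3.11.15.

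The members, lists and alternatives were chosen with earlier results of these data known, and lists are described by counts and medians without a test. Named are Gja1, the 8 members with the smallest p-values, members whose genotypes did not overlap, Ndufa4 (not analysed here), the 3 highest and the 3 lowest by level, other members in the account of their part of the enzyme, and up to 3 genes per further list by p-value. Alternatives were other centrings and normalizations, other limits on missing values, other treatments of probes, variants of eBayes, array weights, arrays left out and the replicate number as a block. The scripts were tested on simulated data with independent noise. The fit called 4.1% of planted log2 changes of 0.5 and 94.9% of changes of 1. Pools are numbered 1 to 4 in each genotype, and no label says what a shared number means. Sequences are RefSeq's, read from a table of GRCm38.p6.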

Additional observations from a re-analysis of the deposited data

Results flagged for a closer look

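In 2 of 70 sets of 4 arrays of a genotype, 1 array lay far from the other arrays by Dixon's ratio, where chance gives about 1 in 20. Ndufs7 read 0.582 on wildtype replicate 3, the array on which most members were highest, and 0.25 to 0.30 on the rest of the wildtype arrays. Ndufaf2 read 0.0617 on wildtype replicate 2 and 0.31 to 0.35 on the remaining wildtype arrays.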

How the results depend on the processing

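The number of members and of features called was 0 under all alternatives run, a threshold of 0.1 included. Features with an unadjusted limma p under 0.05 in either direction numbered 972 of 11804, and 632 of 10831 without null replicate 2. With values required on all 4 arrays of each genotype they numbered 614 of 8078. For members only lower values were counted, 1 of 36. Without centring this was 7 of 36, beside 1392 of 11804 features in either direction, and with array weights 4 of 36, beside 1297 of 11804. Without wildtype replicate 1 it was 3 of 35, beside 910 of 11210 features. Each probe on its own gave 3 of 56, beside 1300 of 16308. The count was 0 with the replicate block, without null replicate 3 and without wildtype replicate 3, beside 728 of 11804, 667 of 10880 and 681 of 9028 features. The median difference of the members was -0.22 without centring. It ran from -0.16 to -0.0026 when 1 array was left out, with 17 to 34 of 32 to 36 members lower in null hearts. With quantile normalization it was -0.11, and with a loess correction, chosen after seeing the data, -0.08. The median level of the members was 0.11 without centring, where all features stood at -0.16, and 0.13 with quantile normalization, where they stood at -0.16, and the gap between both stayed near that over centred arrays. Over the members 739 of 794 pairs of a gene and an alternative kept the sign of the difference, and 0 passed the threshold. Under every alternative that kept them, 16 of 36 genes had the same sign. Among them were Ndufb3 (-0.49 to -0.23), Ndufb9 (-0.37 to -0.16) and Ndufaf6 (-0.29 to -0.18). Ndufaf6 had 19 alternatives, against 23 for Ndufb3 and Ndufb9, and dropped out without wildtype replicate 2, 3 or 4. Ndufa2 had -0.02 and Ndufs4 -0.07 with the probe of fewest missing values; Ndufv1 had 0.02 without null replicate 1, and Ndufaf3 had -0.10 and Ndufa10 -0.0028 without wildtype replicate 3. The causes were not tested. With the replicate number as a block, where an array without a value drops its partner, the median difference was -0.06, Gja1 had -0.95 (limma adjusted p = 0.572) and 0 features were called. Same-numbered arrays did not deviate together (correlations of -0.25 to -0.0090 over 8238 features, with 0 arrays closest to their own number). With 4 arrays per genotype and no label for what a shared number means, this does not settle whether numbers pair the pools. With each probe on its own, members with several probes have no single value.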

Other observations

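Several probes of 1 complex I gene could stand at different levels against the reference. The widest gap was that of Ndufaf4, given above. The probes of Ndufa12 averaged 0.04 and 0.41 over the arrays, and those of Ndufa9 0.23 and 0.54. Genotype differences of these probes had opposite signs, from -0.03 to 0.11 for Ndufa12 and from -0.13 to 0.03 for Ndufa9. Ndufa12 was also the member with the widest spread in wildtype hearts (SD 0.37, n = 4), with -0.33 on wildtype replicate 2 and 0.30 to 0.50 on the other wildtype arrays; on wildtype replicate 2 its probes read -0.91 and 0.25. Ucp1, a marker of brown fat, the other mitochondria-rich tissue of newborn mice, averaged 0.33 in null and 0.0013 in wildtype hearts, a difference of 0.33 (SE 0.20, limma adjusted p = 0.654) with overlapping groups.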
